A study of Rattus norvegicus with 12 samples.

Results

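Nqo1 and 9 other genes tied to the antioxidant regulator Nrf2 were followed in the fetal rat pituitary after maternal exposure to TCDD (2,3,7,8-tetrachlorodibenzo-p-dioxin). The members were taken by name: Nqo1, Ugt1a6, Aldh3a1, Nfe2l2, Keap1, Gclc, Gclm, Hmox1, Txnrd1 and Srxn1, which are 10 of the 26257 genes named on the array and are read by 12 of its 30367 probes. All samples were whole pituitaries of Wistar rat fetuses at gestational day 18, with 3 arrays each from exposed males (male TCDD), unexposed males (male control), exposed females (female TCDD) and unexposed females (female control). The labels give no dose, no day of dosing, no litter and no word on pooling, so p-values measure the spread between these samples, which may be partly technical. Total RNA was amplified, labelled with Cy3 and hybridised to one-colour Agilent whole rat genome arrays.

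TCDD is a ligand of the Ah receptor, a transcription factor that pairs with Arnt and switches on drug-metabolising enzymes such as Cyp1a1. Nrf2, the product of Nfe2l2, is held in check by Keap1 and, when released by oxidants or electrophiles, drives glutathione synthesis, thioredoxin recycling and conjugating enzymes through antioxidant response elements. Nqo1, Ugt1a6 and Aldh3a1 belong to the classical Ah receptor battery, and Nqo1 is also a textbook Nrf2 target, so the members allow Ah receptor targets to be read beside the wider Nrf2 set.

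The array reads each gene through 60-base probes, and the probes of 3 members that the results turn on are shown here to identify what was measured. They are printed 5′ to 3′ in lower case, with no part marked, and positions are on the rn4 build as given in the files. The Nqo1 probe lies at chr19:37251727-37251786 on the minus strand, the second Ugt1a6 probe at chr9:87097621-87097680 on the plus strand, and the Nfe2l2 probe at chr3:58367137-58367196 on the minus strand. Exon and UTR annotation on that build was not used here.
Nqo1 probe: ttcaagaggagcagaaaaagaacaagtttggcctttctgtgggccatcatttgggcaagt
Ugt1a6 second probe: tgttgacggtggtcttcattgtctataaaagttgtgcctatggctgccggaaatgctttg
Nfe2l2 probe: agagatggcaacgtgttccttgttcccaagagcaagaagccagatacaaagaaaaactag

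Stretches of 250 bases upstream of the annotated start are shown as RefSeq sequence on GRCr8 for Nqo1 and Ugt1a6, which on the probe used in the fit had all exposed arrays above the controls, and for Srxn1, whose values were lower. Capitals mark the letters GCGTG, the core of the Ah receptor element, read on either strand (CACGC on the other). The letters TGACNNNGC, the core of the antioxidant response element, were searched for on both strands too and do not occur in these 3 stretches. Sequence farther upstream was not searched, so this is no statement on elements beyond these 250 bases. The Nqo1 stretch is chr19:52220268-52220517 on the minus strand, the Ugt1a6 stretch chr9:96194768-96195017 on the plus strand and the Srxn1 stretch chr3:161064562-161064811 on the plus strand.
Nqo1 upstream: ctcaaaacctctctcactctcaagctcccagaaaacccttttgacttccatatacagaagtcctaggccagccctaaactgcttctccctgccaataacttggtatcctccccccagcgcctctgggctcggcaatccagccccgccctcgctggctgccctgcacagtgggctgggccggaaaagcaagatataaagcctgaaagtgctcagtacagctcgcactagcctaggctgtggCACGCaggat
Ugt1a6 upstream: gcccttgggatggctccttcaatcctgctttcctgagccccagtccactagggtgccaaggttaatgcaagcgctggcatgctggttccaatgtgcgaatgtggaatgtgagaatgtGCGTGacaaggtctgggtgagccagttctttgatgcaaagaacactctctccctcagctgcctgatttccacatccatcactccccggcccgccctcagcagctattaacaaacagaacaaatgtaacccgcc
Srxn1 upstream: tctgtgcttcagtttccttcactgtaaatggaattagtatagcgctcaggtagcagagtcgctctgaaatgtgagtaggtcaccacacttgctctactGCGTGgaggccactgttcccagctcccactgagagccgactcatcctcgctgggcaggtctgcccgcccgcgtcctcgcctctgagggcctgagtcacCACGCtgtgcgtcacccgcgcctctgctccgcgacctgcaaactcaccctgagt

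A promoter sequence was matched for 8 of the 10 members, and the same search was run on each over 250 bases before and 50 after the start. Of all 27457 promoters searched, 1 per gene at its first listed start, 31.1% held GCGTG and 12.2% held TGACNNNGC. Nqo1 and Ugt1a6 held 1 GCGTG each, Srxn1 held 2, Keap1 held 3 and Gclc held 1. The first start of Txnrd1, the kind counted in those shares, held 0 GCGTG and 0 TGACNNNGC. Its second start held 2 GCGTG and 1 TGACNNNGC. Gclm held 1 TGACNNNGC, and Nfe2l2 held 1 TGACNNNGC that lies after its start. Members with a GCGTG match therefore include genes with higher, lower and near-equal values after exposure, and a match is a description of letters, not of a bound site.

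Levels are given as log2 of the processed intensity relative to the 75th percentile of the array, a scale on which 1 probe cannot be ranked against another. A gene counts as called at an adjusted p below 0.05 in limma, with Benjamini-Hochberg adjustment over the 19351 genes measured. Of the 10 members, 9 had a probe that passed the filter on dim probes. Between 75.1% and 78.4% of the 42877 spots of an array lay well above background, and none was saturated. All 15 anterior pituitary markers of a list were measured, with 13 to 15 well above background on exposed arrays and 14 to 15 on control arrays. The mean of 14 sensory ganglion neuron markers was high (0.61 to 2.07) on 4 exposed arrays (male TCDD 1 and 2, female TCDD 1 and 3) and 2 control arrays (male control 2, female control 2), and low (-4.21 to -3.23) on the other 6. In a whole tissue, fewer cells of a type and less RNA per cell cannot be told apart. The arrays lay on 3 slides. Male TCDD 1 shared slide 1 with the 3 male controls, and the 3 exposed females shared slide 3 with female control 3. On slide 2 exposure and sex cannot be told apart. With slide as a fixed block, written as a block below, the exposure difference therefore comes from slides 1 and 3 only. It rests on male TCDD 1 as the 1 exposed male and on female control 3 as the 1 female control.

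Nqo1, which encodes a quinone reductase that spares cells from redox cycling of quinones, rose 2.44-fold with TCDD over both sexes. Its level was -3.03, -2.95 and -2.76 in exposed males, against -4.07, -4.43 and -4.37 in control males. In females it was -2.87, -2.86 and -3.29 after exposure, against -4.40, -4.26 and -3.94 in controls. All 6 exposed arrays lay above all 6 controls, as held for 0.202% of genes (8.39% in males and 1.44% in females when each sex is taken alone). The difference over both sexes was 1.28 on the log2 scale (standard error 0.12, 95% confidence interval 1.01 to 1.56, limma adjusted p = 0.00407), the third smallest p of 19351 genes. Within males it was 1.38 (adjusted p = 0.0683) and within females 1.19 (adjusted p = 0.178), neither past the threshold.

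**Figure D1:**
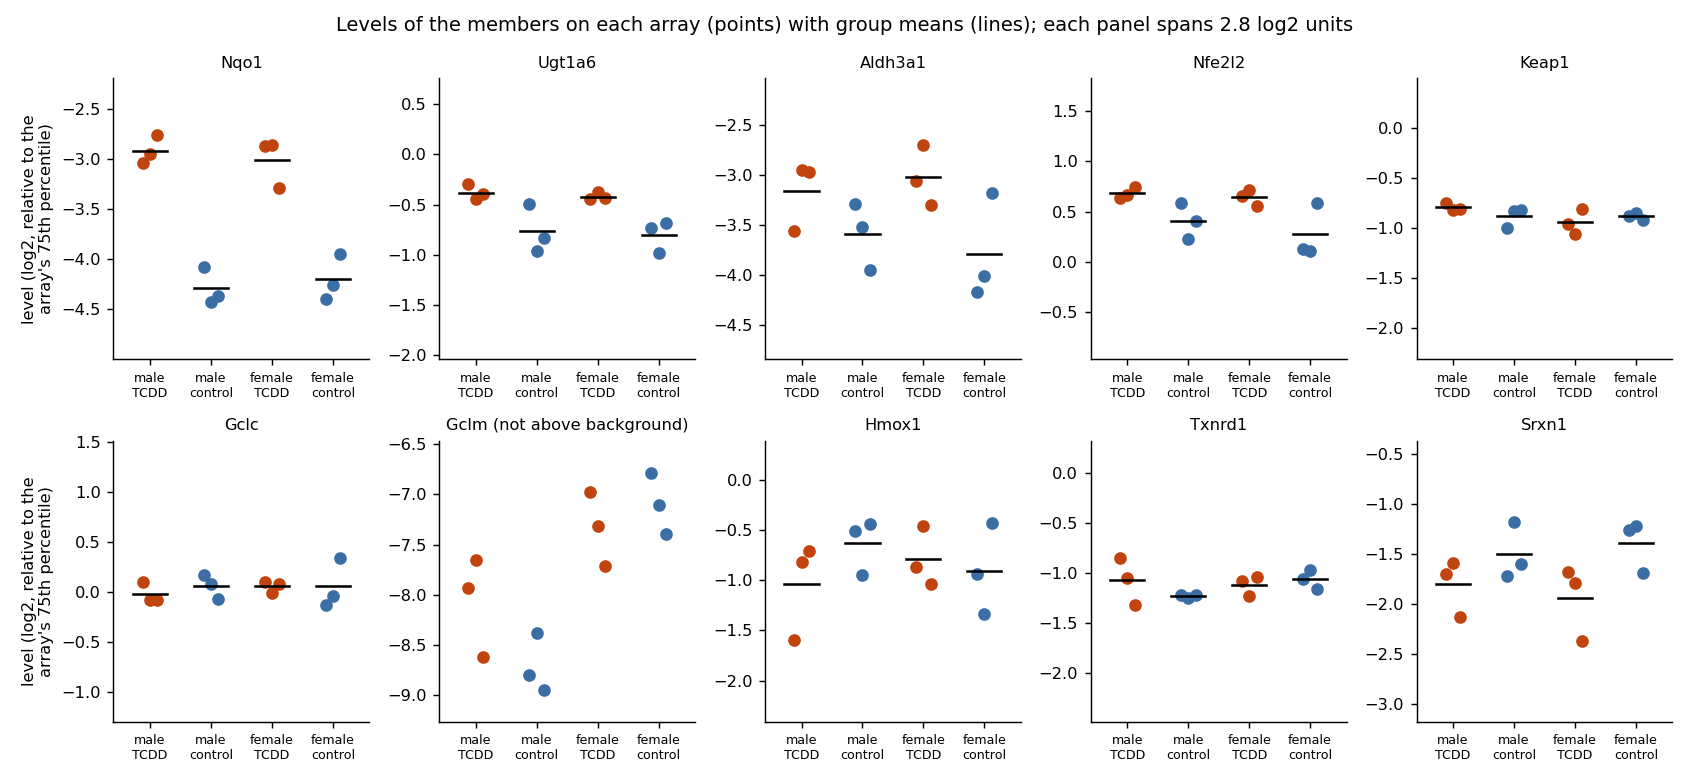
Level of each member on every array (log2, with the 75th percentile of the array at 0), with exposed groups in orange left of their controls in blue and lines for group means (3 arrays each); panels span equal ranges. Nqo1 and Ugt1a6 (brighter probe) have all 6 exposed arrays above all 6 control arrays, as held for 0.202% of genes. Srxn1 lies lower in the exposed group means, and the Gclm probe, drawn without means, was not above background on any array.

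The Nqo1 signal was dim, between 43.5 and 151 intensity units, but well above background on all 12 arrays. Under normexp background correction, with an added offset that pulls dim values together, the difference over both sexes was 0.74 and passed the threshold (adjusted p = 0.0339). With slide as a fixed block it was 1.097 and did not pass (adjusted p = 0.0864). Within slide 1 exposed males differed by 1.26, a value that rests on male TCDD 1 alone, and within slide 3 exposed females differed by 0.94, a value that rests on female control 3 alone. Without the 6 arrays with the ganglion signal the difference was 1.39, as large as with them, and did not pass (adjusted p = 1.00).

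Over both sexes Nqo1 was the only member called, 1 of the 9 measured, where limma called 4 of 19351 genes, or 0.0207%. At an unadjusted p below 0.05 there were 5 members, against 6.46% of all genes, and these were Nqo1, Ugt1a6, Aldh3a1 and Nfe2l2 with higher values and Srxn1 with a lower one. The median difference of the 9 members was 0.05, against -0.02 over all genes, and 6 values were above 0. In males 0 members were called against 0.0103% of genes (2 at an unadjusted p below 0.05, against 9.34%). In females 0 were called against 0.0103% (5 at an unadjusted p below 0.05, against 2.68%).

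Ugt1a6 encodes a glucuronosyltransferase that conjugates small phenols, and in rat liver it is a classical Ah receptor target. Its brighter probe read -0.30, -0.45 and -0.40 in exposed males, against -0.49, -0.96 and -0.84 in control males, and -0.44, -0.38 and -0.44 in exposed females, against -0.74, -0.99 and -0.69 in control females. The exposed arrays lay above every control, as held for 0.202% of genes. Yet the difference of 0.38 (standard error 0.089, 95% confidence interval 0.19 to 0.58) missed the threshold (limma adjusted p = 0.476), at rank 56 of all genes by p.

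The second Ugt1a6 probe, whose sequence is printed above, gave 0.39 (standard error 0.099). On it each exposed array lay above all controls of its sex, as held for 0.3% of genes on their brightest probe. However, female TCDD 1 (-2.88) lay below male control 1 (-2.84). Rat Ugt1a genes share their last exons, so probes near the 3′ end may read other Ugt1a transcripts as well. The brighter probe differed by 0.37 when slide was entered as a block, close to the value without it, by 0.47 among males of slide 1 and by 0.27 among females of slide 3.

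Aldh3a1 encodes an aldehyde dehydrogenase of the Ah receptor battery. It read -3.56, -2.95 and -2.97 in exposed males, against -3.29, -3.52 and -3.95 in control males, and -3.06, -2.71 and -3.30 in exposed females, against -4.17, -4.01 and -3.18 in control females. Groups overlapped in both sexes, through male TCDD 1 at the low end and female control 3 at the high end. The difference over both sexes was 0.60 (standard error 0.21, adjusted p = 0.670). Within slide 1 it was 0.02 in males and within slide 3 0.16 in females. With slide as a block, which rests on these same comparisons and so on the same arrays, it was 0.09.

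Nfe2l2, the gene of Nrf2 itself, read 0.63, 0.66 and 0.75 in exposed males, against 0.58, 0.23 and 0.41 in control males. In females it read 0.65, 0.71 and 0.56 after exposure, against 0.13, 0.11 and 0.58 in controls. Exposed males lay above all their controls, as did 8.39% of genes, while the female groups overlapped through female control 3. The difference over both sexes was 0.32 (standard error 0.095, 95% confidence interval 0.11 to 0.53, adjusted p = 0.670), and with slide as a block it was 0.14 (adjusted p = 0.357). Within slide 1 it was 0.22 in males and within slide 3 0.06 in females.

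Keap1, which tethers Nrf2 and marks it for degradation, differed by 0.01 (95% confidence interval -0.12 to 0.15). Its level lay between -1.06 and -0.76 on exposed arrays and between -0.996 and -0.82 on controls, and the groups overlapped, with 3 exposed arrays above every control. With slide as a block it was 0.05.

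**Figure D2:**
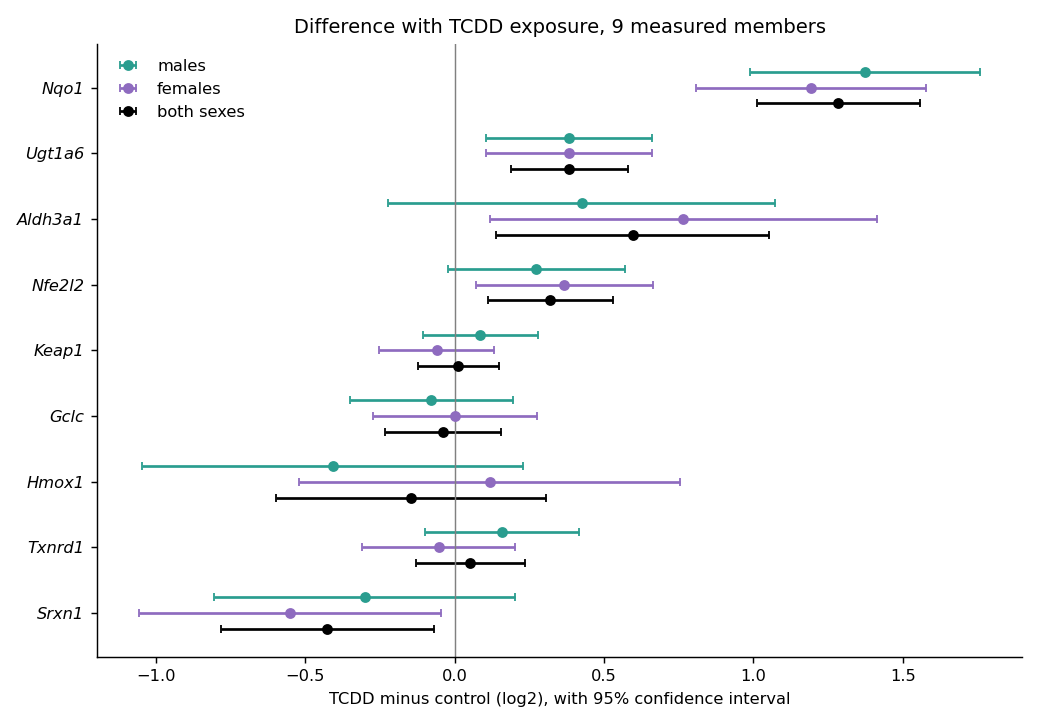
Difference of TCDD minus control (log2 scale) for the 9 measured members, by sex and over both sexes, with 95% confidence intervals from the limma fit. Nqo1 lies at 1.28 over both sexes and near it in either sex, Ugt1a6 at 0.38, Keap1, Gclc and Txnrd1 near 0, and Srxn1 at -0.43.

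Gclc and Gclm encode the catalytic and modifier subunits of glutamate-cysteine ligase, the rate-limiting enzyme of glutathione synthesis. Gclc differed by -0.04 (95% confidence interval -0.23 to 0.16) and ranged from -0.08 to 0.10 on exposed arrays and from -0.13 to 0.34 on controls, with -0.12 when slide was a block. The single Gclm probe was not well above background on any of the 12 arrays, with intensities between 2.10 and 8.82, so no fold is given. Its 60 bases hold 15% G and C, against a median of 45% over all probes, and no probe on the array holds a lower share. The reading limits what this probe can show and is no statement on the gene.

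Hmox1 encodes heme oxygenase, which breaks down heme and is a common readout of oxidative stress. It read -1.59, -0.82 and -0.71 in exposed males, against -0.51, -0.95 and -0.44 in control males, and -0.87, -0.46 and -1.03 in exposed females, against -0.94, -1.34 and -0.43 in control females. The groups overlapped in both sexes, and male TCDD 1 was the lowest array. The difference over both sexes was -0.15 (standard error 0.20, adjusted p = 0.780), and -0.66 with slide as a block (adjusted p = 0.183). Within slide 1, which rests on male TCDD 1, it was -0.96 in males, and within slide 3 it was -0.36 in females. Adjusted for the ganglion marker mean it was 0.06, so its direction depended on the setting. By sex it was -0.41 in males and 0.12 in females. The medians of 8 macrophage markers were -0.49 in males (0 of 8 above 0, against 48.6% of all genes) and 0.15 in females (7 of 8 above 0, against 40.8%), with 0 called. The summed level of these macrophage markers (log2) ran from 3.15 to 4.21 on exposed arrays and from 3.47 to 4.23 on controls. Male TCDD 1 was lowest, as for Hmox1. It was also lowest for erythroid (5.57), endothelial (2.96) and anterior pituitary markers (6.56), and highest for markers of ganglion neurons (6.90) and peripheral glia (4.46). The part of any of these cells in the Hmox1 values was not tested.

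Txnrd1 encodes thioredoxin reductase, which keeps thioredoxin reduced. Its brighter probe differed by 0.05 (95% confidence interval -0.13 to 0.23) and its other probe by 0.14. The level of the brighter probe ran from -1.32 to -0.85 on exposed arrays and from -1.25 to -0.97 on controls, and only 1 exposed array lay above every control. With slide as a block the difference was 0.21 (adjusted p = 0.210).

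Srxn1 encodes sulfiredoxin, which repairs over-oxidised peroxiredoxins and is a known Nrf2 target in rodents. It read -1.70, -1.59 and -2.13 in exposed males, against -1.72, -1.18 and -1.60 in control males, and -1.68, -1.79 and -2.37 in exposed females, against -1.26, -1.22 and -1.70 in control females. The 6 exposed arrays lay below the control mean of their sex, a count whose share over all genes was not taken. The groups overlapped in both sexes. A stricter separation, every exposed array below every control, was not met by Srxn1. It held for 6.03% of genes in males, 5.51% in females and 0.377% in each sex at once. The difference over both sexes was -0.43 (standard error 0.16, 95% confidence interval -0.78 to -0.07, adjusted p = 0.670), opposite in sign to Nqo1. With slide as a block it was -0.22 (adjusted p = 0.516).

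The effect of exposure was compared between males and females through the interaction term. No member was called, and 0 of 19351 genes were called by limma (4.46% at an unadjusted p below 0.05, and 0 members). For Nqo1 the effect in males exceeded that in females by 0.18 (95% confidence interval -0.36 to 0.73), and for Ugt1a6 by 0.00 (-0.39 to 0.39). The value farthest from 0 was that of Hmox1, at -0.53 (-1.43 to 0.38). Between male and female controls 0 members were called too (0.0103% of genes called, and at an unadjusted p below 0.05 0 members against 5.5% of genes), and differences of male minus female ran from -0.17 for Txnrd1 to 0.27 for Hmox1.

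Among the Ah receptor genes Ahrr and Cyp1a1 were called higher, and their differences were larger than that of Nqo1. Ahrr, the receptor's repressor, rose by 5.92 on the log2 scale (adjusted p = 5.11e-06), with means of 0.24 in male TCDD and 0.23 in female TCDD, against -5.73 in male control and -5.63 in female control. Cyp1a1 was not well above background on any control array and was at least 25.5-fold higher after exposure. It passed the filter on dim probes through the 6 exposed arrays alone, so its call (adjusted p = 1.07e-05) is no independent support. Cyp1b1, a further cytochrome P450 of the battery, differed by 0.82 (adjusted p = 0.116), and transcript ENSRNOT00000015387, listed as the dioxin-inducible polymerase Tiparp, by 0.50 (adjusted p = 0.282).

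For Ahrr, Cyp1b1 and ENSRNOT00000015387 each exposed array lay above all controls of its sex, as held for 0.3% of all genes. The same was seen for Cyp1a1, but its passage through the filter already rested on the exposed arrays, so it is no independent support. The receptor gene Ahr differed by -0.28, Arnt by 0.04 and Arnt2 by 0.02, and Cyp1a2 did not pass the filter on dim probes. Of the 8 Ah receptor genes tested, 2 were called higher and 0 lower. Values above 0 numbered 7, and the median was 0.29, against -0.02 over all genes. Cyp1a1 is counted among the called genes, among the values above 0 and in the median.

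No gene on the list of wider Nrf2 targets was called. Of 46 genes listed, 42 were tested and 0 were called in limma, with 1 higher and 1 lower at an unadjusted p below 0.05. Their differences were above 0 for 24 and below 0 for 18, where 44.2% of all genes were above 0, with a median of 0.02 and a range from -0.76 to 0.80. The smallest p-values belonged to Mt1, a metallothionein, at -0.47 (adjusted p = 0.670), Akr7a3, an aflatoxin aldehyde reductase, at 0.33, and Cat, catalase, at 0.24. In males 16 of the 42 values were above 0, where 48.6% of all genes were, and in females 23 of the 42, where 40.8% were. Again 0 were called in either sex (3 higher and 1 lower at an unadjusted p below 0.05 in males, against 9.34% of all genes in either direction, and 0 in females, against 2.68%).

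**Figure D3:**
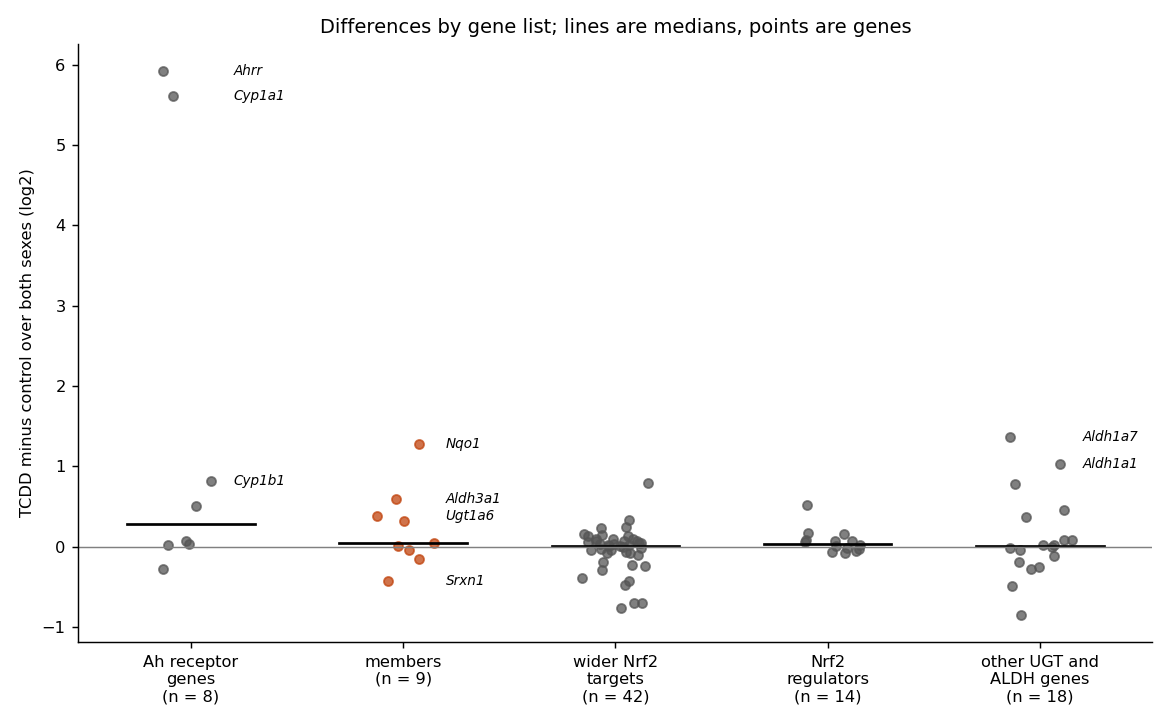
Difference of TCDD minus control over both sexes (log2 scale) for each tested gene of 5 lists, with a line at each list's median. Ahrr and Cyp1a1 (a fitted value, since its controls were not above background) stand near 6, Nqo1 at 1.28, and the 42 wider Nrf2 targets spread around 0 from -0.76 to 0.80.

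Among 14 tested Nrf2 regulators 0 were called (0 at an unadjusted p below 0.05), with a median of 0.04. The smallest p-values were those of Bach2, a repressor that competes for antioxidant response elements, at 0.52, Dpp3, a Keap1-binding peptidase, at 0.08, and Gsk3b, a kinase that marks Nrf2 for turnover, at 0.16, with adjusted p-values from 0.671 to 0.675.

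Among 18 tested genes of other UDP-glucuronosyltransferases and aldehyde dehydrogenases 0 were called (2 higher at an unadjusted p below 0.05), and the median was 0.01. Aldh1a1, a retinaldehyde dehydrogenase, differed by 1.02 (adjusted p = 0.0813), with means of -0.97 in male TCDD and -1.38 in female TCDD, against -2.27 in male control and -2.13 in female control. Each exposed array lay above all controls of its sex for Aldh1a1, as held for 0.3% of genes. Its relative Aldh1a7 differed by 1.37 (adjusted p = 0.670) and was well above background on 8 of 12 arrays. Aldh2, the mitochondrial enzyme that clears acetaldehyde, differed by -0.28.

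The genes whose level ran most like that of Nqo1 over the 12 arrays were ranked by Pearson's r among 16962 genes, as a description with no test, since the arrays share the exposure contrast and their slides. They were Ahrr (0.957), ENSRNOT00000015387 (0.922), Ihh (0.909), Slc27a2 (0.900) and Myh7 (0.886). Among the members r with Nqo1 was 0.87 for Ugt1a6, 0.84 for Nfe2l2, 0.78 for Aldh3a1, 0.10 for Txnrd1, -0.04 for Gclc, -0.06 for Keap1, -0.07 for Hmox1 and -0.64 for Srxn1.

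After group means were removed, the nearest genes were others: Slc4a4 (0.970), Trpc6 (0.964), A_64_P016976 (0.947), ENSRNOT00000066224 (0.944) and Chrnb4 (0.937). Within groups r with Nqo1 was 0.84 for Nfe2l2, 0.80 for Aldh3a1, 0.67 for Hmox1, 0.47 for Ugt1a6, 0.46 for Gclc, -0.18 for Srxn1, -0.55 for Txnrd1 and -0.81 for Keap1. The share of genes with a lower r was 99.2% for Nfe2l2, 98.6% for Aldh3a1, 92.5% for Hmox1, 78.1% for Ugt1a6 and 76.8% for Gclc. It was 29.7% for Srxn1, 9.24% for Txnrd1 and 0.472% for Keap1. These values over 12 arrays and 4 groups are descriptive.

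**Figure D4:**
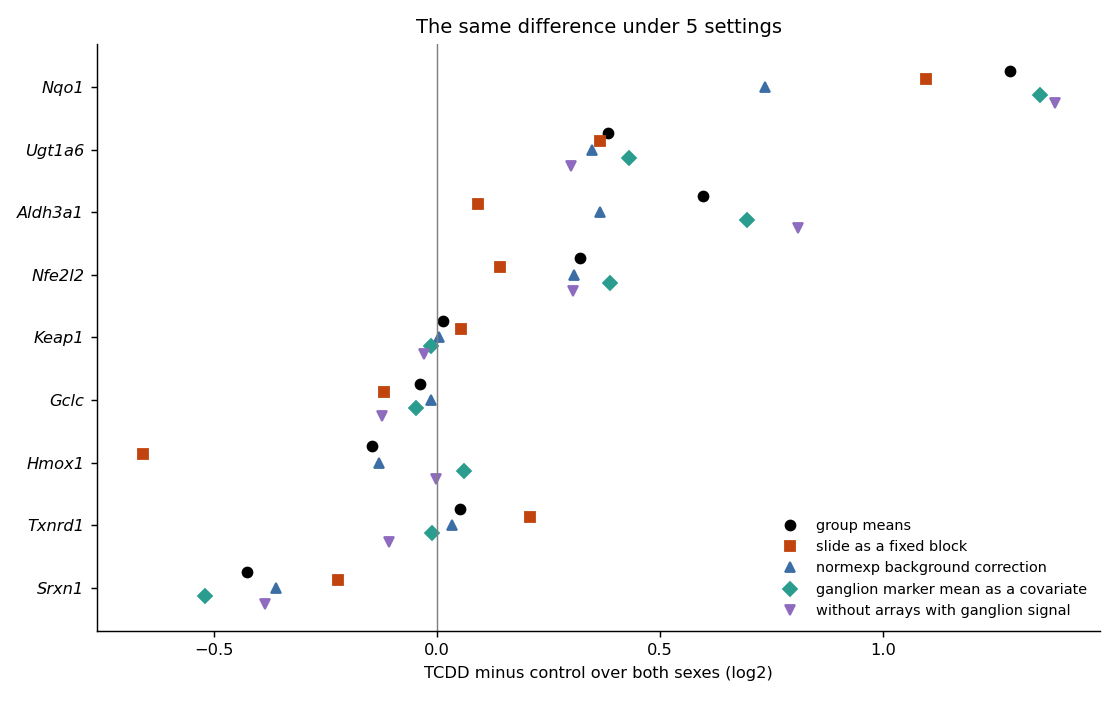
Difference of TCDD minus control over both sexes (log2 scale) for each measured member in the fit of group means and under 4 other settings. Nqo1 stays between 0.74 and 1.39 and Ugt1a6 between 0.30 and 0.43, while Aldh3a1 lies at 0.09 and Hmox1 at -0.66 with slide as a block.

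Ganglion markers had higher mean values on exposed arrays. The 14 differed by a median of 1.74 over both sexes, with 14 of 14 above 0, where 44.2% of all genes were. The list was known from earlier results of these data to split the arrays. Its mean was high on some arrays and low on the rest, as given above, so the 14 are not separate observations. Of them 0 were called (0 at an unadjusted p below 0.05, against 6.46% of all genes). Their summed level ran from 0.84 to 6.90 on exposed arrays and from 0.42 to 5.99 on controls (log2). The 6 tested markers of peripheral glia had a median of 0.84, with 0 called and 1 higher at an unadjusted p below 0.05 (Foxd3). Foxd3 was well above background on 4 arrays and on no control. It passed the filter on dim probes through exposed arrays alone, so its value, part of the median, is no independent support. The 15 anterior pituitary markers had a median of -0.40, with 14 of 15 below 0 and 0 called. At an unadjusted p below 0.05, 7 of them were lower, against 6.46% of all genes in either direction. Adjusted for the mean of the ganglion markers, Nqo1 differed by 1.35, Ugt1a6 by 0.43, Nfe2l2 by 0.39, Aldh3a1 by 0.69 and Srxn1 by -0.52. The part of these cells in the values of the other members was not tested.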

How the data were processed

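The deposited scanner files hold spot intensity on a linear scale, written by Agilent Feature Extraction 10.7.1.1 per the file headers (9.5.1.1 per the submitters' processing notes). The authors' deposited value table holds intensity too; each column has a median of 83.5, its scale was found to be linear, its quantile normalization is inferred from equal distributions, and it served as an alternative. Control spots and outlier-flagged spots were left out, and the log2 of the deposited processed intensity minus each array's 75th percentile was averaged per probe. Probes well above background on at least 3 of 12 arrays, with at least 10 values, were kept (22431 of 30367), and each of 19351 genes was read from its brightest kept probe. Names came from RefSeq by accession (18006 probes), by symbol (3213) or from the files (9148).

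Group means were fitted to all 12 arrays with limma 3.58.1 in R 4.3.3, with a variance trend and Benjamini-Hochberg adjustment, in a script tested on simulated data. The number of arrays limits the precision. A probe not above background in a group has only a bound, from the higher of the lowest signal well above background and its own signal.

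Members and lists were chosen with earlier results of these data known. Every member was named, as were fixed Ah receptor genes, called list genes, the 3 smallest p of a list, and the 5 genes most like Nqo1. Alternatives covered background correction, scaling, filters, slides, ganglion markers, left-out arrays and the replicate number as a block. The labels do not say whether a replicate number marks a litter or a day. Same-numbered arrays of a sex deviated from their group means with r between -0.80 and 0.53. Across the sexes r lay between -0.72 and 0.85. Deviations from means of 3 arrays cannot settle whether the numbers pair samples.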

Additional observations from a re-analysis of the deposited data

How the results depend on the processing

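The difference of Nqo1 over both sexes was above 0 in all 28 alternatives (0.74 to 1.39) and passed in 23. It did not pass with slide as a fixed block (1.097), within slides 1 and 3 (1.097) or without the 6 arrays with the ganglion signal (1.39). The fixed block and the fit within slides 1 and 3 give the same estimate, since slide 2 holds only exposed males and control females. They are therefore not separate checks among the 28. The cause was not tested, though all of these settings draw the exposure difference from fewer arrays. Whether the replicate numbers pair the samples is not known. With the replicate block within each sex Nqo1 stood at 1.28 and did not pass (adjusted p = 0.530, 0 members and 2 genes called over both sexes, 1 gene in either sex). With the replicate block across the 4 groups, chosen after seeing the data, it stood at 1.28 and did not pass (0.0531, 0 members and 2 genes). In males Nqo1 passed without the variance trend (1.38, adjusted p = 0.0489) and with the ganglion covariate (1.45, 0.0327), which gave 1 member and 4 genes each.

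Genes called over both sexes numbered 15 with slide as a fixed block, 11 within slides 1 and 3, 11 with the ganglion covariate and 0 without the ganglion arrays, against 4. In males they numbered 26 with slide as a fixed block, 276 within slide 1, 1 with normexp, 0 without the ganglion arrays and 1 when probes had to clear background everywhere, against 2. In females they numbered 1 with probes above background on all arrays, 4 with the ganglion covariate, and 0 within slide 3 and without the ganglion arrays, against 2.

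Members with values near 0 changed sign. Keap1 over both sexes was -0.0010 with quantile normalization, -0.0110 with median centring, -0.0023 in the authors' deposited table, -0.0137 with the ganglion covariate and -0.0301 without the ganglion arrays. Gclc was 0.0445 in males with slide as a fixed block or within slide 1. In females it was -0.28 with either slide setting (fixed block, within slide 3), -0.0728 with slide as a random block, -0.0065 with the ganglion covariate and -0.11 without the ganglion arrays. Hmox1 was 0.0613 over both sexes with the ganglion covariate, and -0.36 in females with slide as a fixed block or within slide 3. Txnrd1 was -0.0124 over both sexes with the ganglion covariate and -0.11 without the ganglion arrays, -0.10 in males without them, and in females 0.00011 with normexp and 0.0392 with slide as a fixed block or within slide 3.

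With each array left out in turn Nqo1 over both sexes lay between 1.24 and 1.36 and passed 12 of 12 times (adjusted p 0.00601 to 0.0258). Over both sexes Keap1 ran from -0.0203 to 0.0422, Gclc from -0.0857 to 0.0325, Txnrd1 from -0.0032 to 0.11 and genes called from 4 to 9 (9 when male TCDD 1 was left out, 7 each for male TCDD 3 and female control 1). In females Gclc ran from -0.0941 to 0.14, Hmox1 from -0.10 to 0.35 and Txnrd1 from -0.0996 to 0.00057. Dim signal limits Nqo1, Aldh3a1 and Gclm.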

Other observations

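Markers of other cells that a dissected pituitary could hold had 0 called genes over both sexes in limma. The 7 tested erythroid markers had a median difference of -0.14, with -0.38 in males (1 of 7 above 0) and 0.11 in females (6 of 7 above 0). The 8 macrophage markers had -0.15 over both sexes, with 0 of 8 above 0, while in females alone 7 of 8 were above 0. The 6 endothelial markers had a median of -0.14, and the 6 tested markers of stratified epithelium -0.16. At an unadjusted p below 0.05 over both sexes, 1 marker of stratified epithelium was lower and none of the other 3 lists, against 6.46% of all genes in either direction. Of all genes, 44.2% were above 0 over both sexes, 48.6% in males and 40.8% in females.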
